A study of Homo sapiens with 42 samples.

Results

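The HHAT, RIPK2 and LINC01450 loci each held a region whose chromatin accessibility differed from control in the same direction in drug tolerant persister cells of 4 lung cancer lines. HHAT encodes hedgehog acyltransferase, an enzyme of the endoplasmic reticulum that attaches palmitate to hedgehog ligands. RIPK2 encodes a kinase that carries signals from the receptors NOD1 and NOD2, which sense bacterial cell wall fragments, to NF-κB. LINC01450 is a long non-coding RNA. The loci were taken as all regions that the submitters' annotation gave to 1 of these genes in any line, plus the unannotated regions between the outermost of them. This gave 412 of 1712125 regions over the tables of the 4 lines. Of these, 183 lay at HHAT, 115 at RIPK2 and 114 at LINC01450. The spans were chr1:210292386-210464926, chr8:89758127-89837524 and chr7:40899159-41029480 (hg38). Enough counts for a test were reached by 156 regions, 69 at HHAT, 52 at RIPK2 and 35 at LINC01450. The other 256 had too few counts. A region that passed this filter only through a group where it was high could hardly fail to differ, so counts over tested regions describe those regions and not the loci as a whole.

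Accessibility was measured by ATAC-seq, which reads out where a transposase can enter chromatin, in 42 libraries in 14 groups of 3 biological replicates. PC9, H1975, HCC827 and HCC2935 are established EGFR-mutant lung adenocarcinoma lines. Control cells spent 21 days without drug and then 3 days in the vehicle DMSO. Persisters (DTP) were kept in 500 nM osimertinib, an inhibitor of EGFR, for 24 days. The sequential combination (combo) was 21 days of 500 nM osimertinib followed by 3 days of 150 nM AZD5153, a bromodomain inhibitor. In PC9 and H1975 a 4th group (AZD5153) had 21 days without drug and then 3 days of 150 nM AZD5153. The labels do not say whether osimertinib stayed on during AZD5153. Surviving persisters are a selected fraction of a culture, and these bulk libraries cannot tell a change within cells from a change in which cells remained.

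Accessible chromatin marks promoters and distal elements that can be bound by transcription factors. An annotated region counts toward a gene here only because that gene's start was the nearest one, and no RNA level enters. An unannotated region counts only by its position within the span. These include the HHAT core region of PC9 and the RIPK2 core region of HCC827 and HCC2935, which are defined below. Levels are in CPM, which are counts relative to the TMM-scaled total of the tested regions in each library. Log2 fold changes are given ± standard error (SE) from edgeR. Totals in the tables were 3989287 to 5193390 counts per library in PC9, 6200672 to 10062505 in H1975, 1724680 to 4242868 in HCC827 and 3968690 to 8066287 in HCC2935. Replicates of PC9 and H1975 varied little more than counting noise (variance 0.95 to 1.21 times it), and those of HCC827 up to 9.24 times. The p-values in PC9 and H1975 may therefore cover technical spread only. Promoters of 7 of 7 epithelial markers were annotated as accessible in every line, at 10.7 to 63.3 CPM in control. Of 9 markers of other cell types, 3 were annotated in PC9 and H1975 and 1 in HCC827 and HCC2935, at 2.50 to 26.0 CPM.

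The annotated 5′ promoter regions of HHAT overlapped a pair of CpG-rich stretches, which are shown because this promoter is compared with the intron and the internal promoter. The sequences are RefSeq promoter sequence of build GRCh38.p14, plus strand, in the 250 bases before a transcript start, with CpG dinucleotides in capitals. The first lies at chr1:210328652-210328901, with 27 CpG and 71.6% GC, and the second at chr1:210329116-210329365, with 26 CpG and 61.6% GC. The median over all promoters of this table was 11 CpG.
HHAT window 2: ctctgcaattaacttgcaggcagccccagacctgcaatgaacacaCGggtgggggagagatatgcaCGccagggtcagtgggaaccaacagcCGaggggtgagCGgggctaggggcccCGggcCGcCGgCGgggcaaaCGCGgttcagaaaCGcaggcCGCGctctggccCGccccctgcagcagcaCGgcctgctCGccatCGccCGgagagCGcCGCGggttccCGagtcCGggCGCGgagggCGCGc
HHAT window 3: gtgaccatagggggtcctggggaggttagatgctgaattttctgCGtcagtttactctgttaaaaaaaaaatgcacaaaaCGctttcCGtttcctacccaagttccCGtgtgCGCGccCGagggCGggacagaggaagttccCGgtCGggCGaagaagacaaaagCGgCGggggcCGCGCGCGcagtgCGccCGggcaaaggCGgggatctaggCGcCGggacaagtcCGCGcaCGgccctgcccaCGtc
The RefSeq table held 3 windows for HHAT. The motifs TGANTCA (AP-1), CATTCC (TEAD), GTAAACA (FOX) and CAGGTG (ZEB), searched on both strands, were in none of these windows except for 1 match of CAGGTG in the remaining window. They occurred in 6.57%, 11.9%, 2.98% and 17.5% of 35116 promoter windows of the same length. The absence of these letters here says nothing about the factors.

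Regions of 502 bases were matched between lines by a reciprocal overlap of at least 50%, and 40308 were matched and tested in all 4 lines. Of these, 6 were called in the same direction for DTP against control in all lines, and 3 of the 6 lay at these loci. They are called core regions below. These loci were chosen by the measured difference of DTP from control, so their levels in these groups are a description and carry no test. In H1975 the HHAT core region was chr1:210373182-210373683, in intron 3 of 11 of a HHAT transcript and 46.1 kb from the start of the gene. The nearest HHAT start, of a shorter transcript at chr1:210369715, was 3467 bases away. The RIPK2 core region was chr8:89805170-89805671, annotated as distal intergenic and 14.4 kb past the end of the gene. The LINC01450 core region was chr7:40918736-40919237, also distal intergenic, 45.7 kb past the end of the gene.

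The HHAT core region was lower in DTP than in control in every line. In control it had 6.67, 3.30 and 2.48 CPM in PC9, and in DTP 1.70, 1.289 and 1.25 CPM. In H1975 control had 19.3, 22.7 and 21.7 CPM, and DTP 3.07, 2.04 and 3.47 CPM. In HCC827 control had 47.8, 17.2 and 50.6 CPM, and DTP 2.15, 3.35 and 1.93 CPM. The libraries did not overlap in any of these lines, and the spread was widest in HCC827 control. In HCC2935 control had 53.1, 56.4 and 46.6 CPM, and DTP 8.17, 7.94 and 9.16 CPM. The log2 fold change ran from -1.46 ± 0.40 in PC9 to -4.00 ± 0.56 in HCC827. PC9 stands apart by its low counts, 10 to 21 in control and 5 to 7 in DTP.

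The RIPK2 core region was higher in DTP than in control in every line. PC9 control had 0.318, 0.507 and 2.48 CPM against 19.4, 15.98 and 15.3 CPM in DTP. H1975 control already had 23.2, 21.9 and 18.3 CPM and DTP 37.9, 42.1 and 38.3 CPM. H1975 thus had the highest control level and the smallest log2 fold change, 0.90 ± 0.09. The median for DTP against control within 5 Mb of RIPK2 was 0.31 in H1975, 0.26 in PC9, 0.40 in HCC2935 and -0.16 in HCC827. HCC827 control had 3.49, 1.91 and 1.69 CPM and DTP 19.3, 19.3 and 32.8 CPM. HCC2935 stayed low throughout, with 0.437, 0.295 and 0.626 CPM in control and 3.42, 2.65 and 2.29 CPM in DTP. The HCC2935 control libraries held 1 or 2 counts each, so no fold is given there.

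At LINC01450 the core region was also higher in DTP in every line. PC9 control had 13.7, 12.4 and 11.7 CPM and DTP 34.3, 31.5 and 30.0 CPM, a log2 fold change of 1.35 ± 0.13. H1975 control had 0.619, 0.269 and 0.539 CPM, which is 2 to 4 counts, and DTP 21.0, 26.7 and 21.3 CPM. HCC827 control had 1.49, 1.27 and 0 CPM and DTP 26.5, 24.3 and 47.0 CPM. The region was thus already open in PC9 control and nearly closed in control of H1975 and HCC827. HCC2935 control had 4.80, 3.54 and 12.2 CPM and DTP 46.4, 42.2 and 34.5 CPM. None of the HCC2935 control libraries reached a DTP library.

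**Figure D1:**
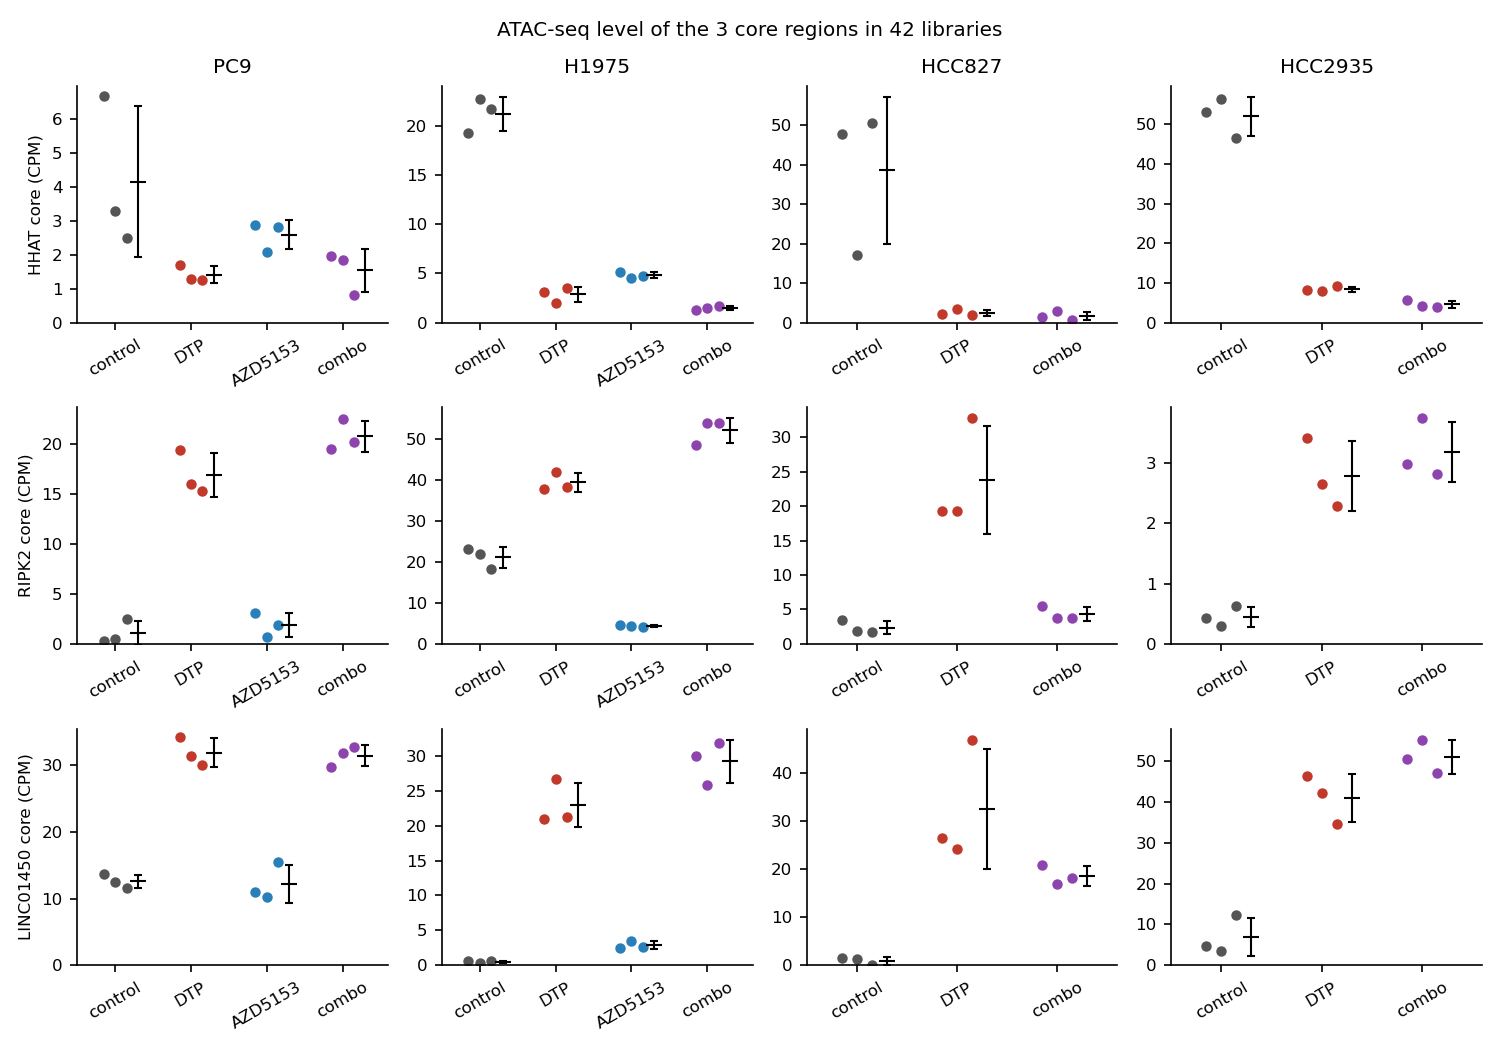
Level of the HHAT, RIPK2 and LINC01450 core regions (rows, CPM on axes that start at 0 and differ between panels) in each library of the 4 lines (columns). Points are libraries, and the bar beside them is the mean ± SD of 3. The HHAT core region is lower, and the other core regions higher, in DTP than in control of every line, and the RIPK2 core region of HCC827 combo lies near its control.

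The submitters also called peaks in each library. A peak overlapped the HHAT core region in 27 of 42 libraries, the RIPK2 core region in 28 and the LINC01450 core region in 36. The HHAT core region had a peak in 3 of 3 control libraries of H1975, HCC827 and HCC2935, in 1 of 3 HCC827 DTP libraries and in 0 of 3 HCC827 combo libraries. In PC9 it had a peak in 1 of 3 control libraries and in 0 of 3 DTP libraries. The RIPK2 core region had a peak in 0 of 3 control libraries of HCC827 and HCC2935 and in 2 of 3 DTP libraries of both. The LINC01450 core region had a peak in 3 of 3 DTP libraries of every line. In control it had a peak in 3 of 3 libraries of PC9, 1 of 3 of H1975, 0 of 3 of HCC827 and 2 of 3 of HCC2935.

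HCC827 set the limit of which regions were called. There the adjusted p for DTP against control was 0.0450 at LINC01450 and 0.0497 at both HHAT and RIPK2, just under the threshold of 0.05. The next members outside it were chr1:210373791-210374292 beside the HHAT core region, at 0.125, and chr8:89804627-89805128 beside the RIPK2 core region, at 0.228. Leaving out 1 library at a time, the HCC827 call was lost in 8 of 9 cases at HHAT and RIPK2 and in 7 of 9 at LINC01450. At an overlap of at least 80%, 1 of the 3 core regions was still matched and called in all lines. Replicate numbers pair the HCC827 libraries, and with the replicate as a block 539 regions were called alike in all lines. These held 1 further member, upstream of HHAT.

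Over all members, DTP against control gave 9 higher and 4 lower of 33 tested regions in PC9, where 31.7% of all tested regions were called (15.4% higher, 16.4% lower). It gave 27 higher and 21 lower of 61 in H1975 (51.9% of all regions called, 24.9% higher and 27% lower) and 19 higher and 3 lower of 38 in HCC2935 (37.3%, 18.7% and 18.6%). In HCC827 it gave 2 higher and 1 lower of 24 (0.0219%, 0.0158% and 0.00607%), and 5 higher and 4 lower with the block (3.88%, 2.16% and 1.72%). Since this contrast chose the loci, nothing is read from these counts.

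The lower signal at HHAT extended over neighbouring regions. In H1975 the annotation placed chr1:210372587-210373088 at 2872 bases from a HHAT start. It placed chr1:210373690-210374191 in an exon of the transcript ENST00000364102.1. In H1975 the region at chr1:210371819-210372320 had a log2 fold change of -3.44, that at chr1:210372587-210373088 -3.20, the core region -2.89, and the next regions -1.52 and -0.59. The value of -3.44 rests on few counts, with DTP libraries at 0.768, 0.113 and 0 CPM. In HCC827 the core region had -4.00 and the regions after it -2.09 and -0.59. In HCC2935 a region at chr1:210371860-210372361 had -3.53, the core region -2.63 and the region at chr1:210374255-210374756 0.26. The difference was thus smaller on the 3′ side of the core region in these lines. In PC9 the values were -1.46, -0.53 and -0.17.

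Elsewhere at HHAT the persisters were more open. An internal promoter, at the start of a shorter HHAT transcript (chr1:210439583), was the strongest HHAT promoter region in H1975, HCC827 and HCC2935 by its level over all groups. In control alone the 5′ promoter was higher than the internal one in H1975, at 3.79 against 2.67 CPM, and in HCC2935, at 10.98 against 4.02 CPM. In H1975 the internal promoter had 2.63, 2.42 and 2.97 CPM in control and 26.5, 27.1 and 25.0 CPM in DTP. In HCC2935 it had 3.06, 1.48 and 7.51 CPM in control and 28.5, 22.0 and 21.6 CPM in DTP. In HCC827 it had 17.9, 19.7 and 13.1 CPM in control and 38.0, 36.1 and 67.5 CPM in DTP. In PC9 the region there had 1.91, 1.27 and 0.992 CPM in control and 8.75, 8.25 and 5.76 CPM in DTP. DTP libraries lay above control libraries in all lines at this place, with log2 fold changes of 1.498 ± 0.42 to 3.28 ± 0.15.

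At the 5′ promoter of HHAT the values differed between lines, which was not tested. In PC9, where it was the strongest HHAT promoter region, it had 16.1 ± 1.21 CPM in control and 13.2 ± 0.767 CPM in DTP (SD, n = 3). The 5′ promoter regions of the other lines were picked after their values were seen. In HCC2935 the region had 10.98 ± 3.69 CPM in control and 11.2 ± 0.996 CPM in DTP, and in HCC827 6.34 ± 0.625 and 9.01 ± 0.540 CPM. H1975 had 3.79 ± 1.07 CPM in control and 11.3 ± 0.938 CPM in DTP, a log2 fold change of 1.55.

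The further shared member lay upstream of HHAT, at chr1:210294873-210295374 in PC9, at -32878 bases from the nearest HHAT start. It had 1.41 ± 0.869 CPM in PC9 control and 5.08 ± 0.792 CPM in DTP, and 0.821 ± 0.599 and 2.09 ± 0.375 CPM in H1975. It had 1.06 ± 0.971 and 8.51 ± 3.43 CPM in HCC827, and 1.16 ± 0.627 and 6.78 ± 0.789 CPM in HCC2935. Peaks covered it in 24 of 42 libraries and in 0 of 3 control libraries of each line. Every DTP library lay above every control library within a line.

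**Figure D2:**
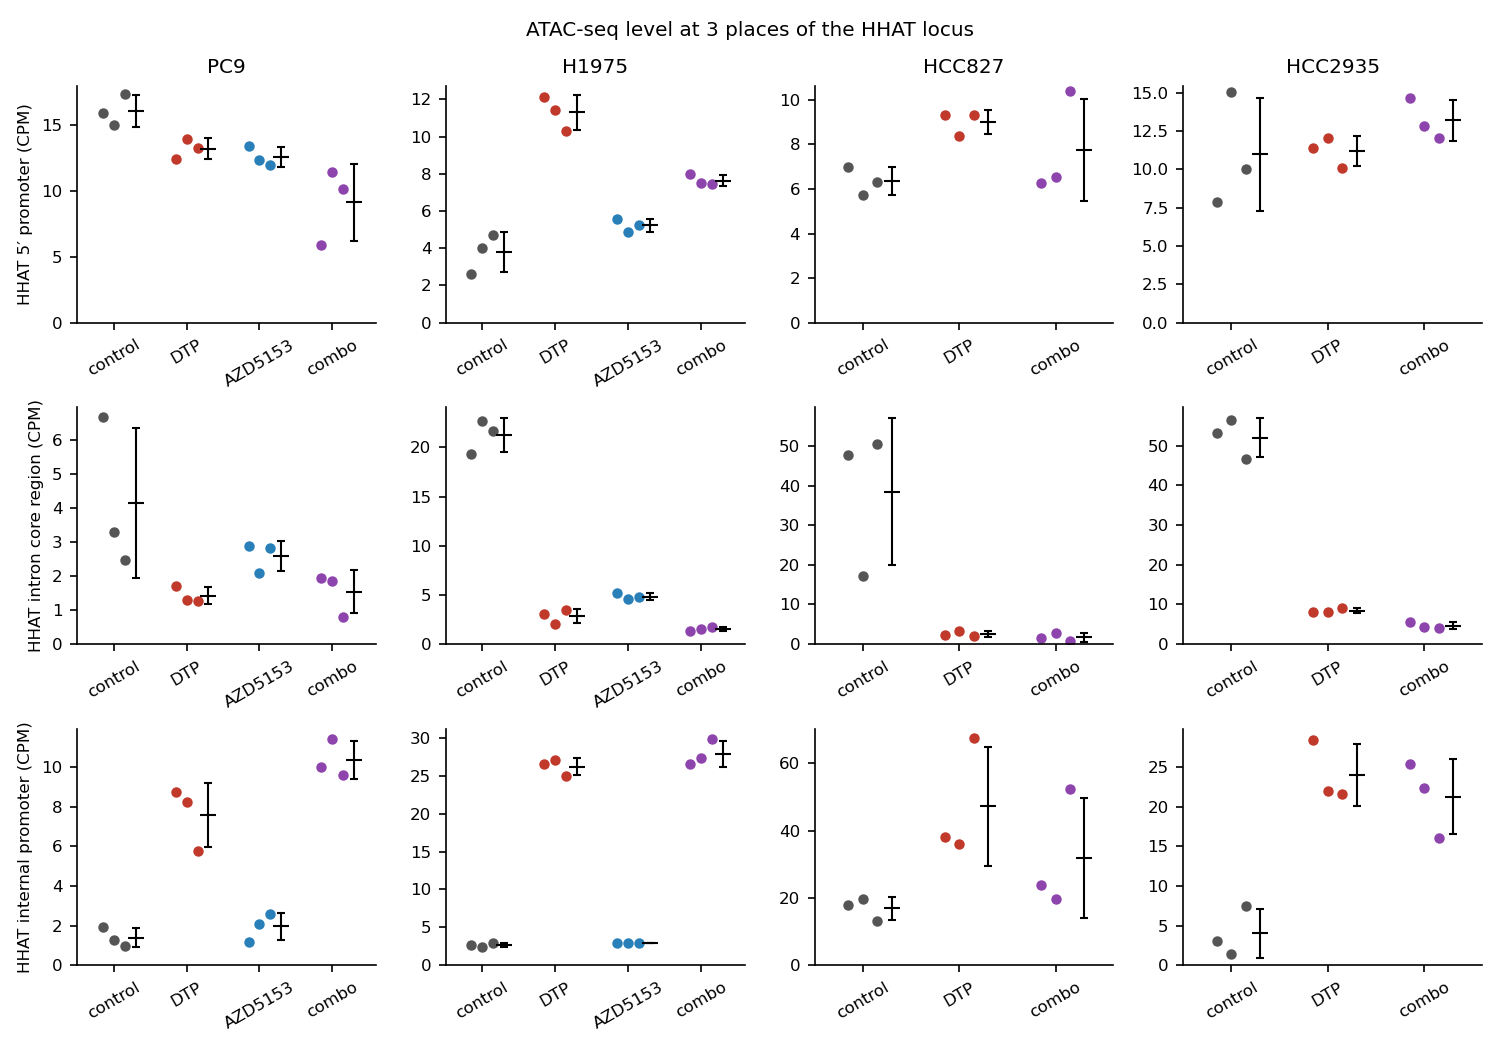
Level (CPM, axes from 0) of the HHAT 5′ promoter, the intron core region and the internal promoter (rows) in each library of the 4 lines (columns), with the mean ± SD of 3 beside the points. Within each line the intron core region is lower in DTP than in control and the internal promoter is higher, while the 5′ promoter of HCC2935 has 10.98 CPM in control and 11.2 CPM in DTP.

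The start of RIPK2 itself was open in all lines. A region over the start of RIPK2, which the submitters' annotation gave to the divergent transcript RIPK2-DT and which is therefore no member, had 21.5 ± 1.46 CPM in PC9 control and 19.8 ± 3.10 CPM in DTP. It had 44.2 ± 1.72 and 34.5 ± 0.789 CPM in H1975, 40.6 ± 21.6 and 41.2 ± 8.13 CPM in HCC827, and 8.19 ± 0.353 and 7.30 ± 0.405 CPM in HCC2935. The member promoter region of RIPK2 had 5.71 ± 0.544 and 5.32 ± 0.864 CPM in PC9, and 11.1 ± 0.754 and 13.1 ± 1.89 CPM in H1975. Beside the core region, a neighbour at chr8:89804643-89805144 in PC9 went from 1.64 ± 0.232 to 9.87 ± 3.64 CPM, and in H1975 from 2.04 ± 0.507 to 8.55 ± 0.727 CPM. No region within 1 kb of the LINC01450 start was annotated.

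**Figure D3:**
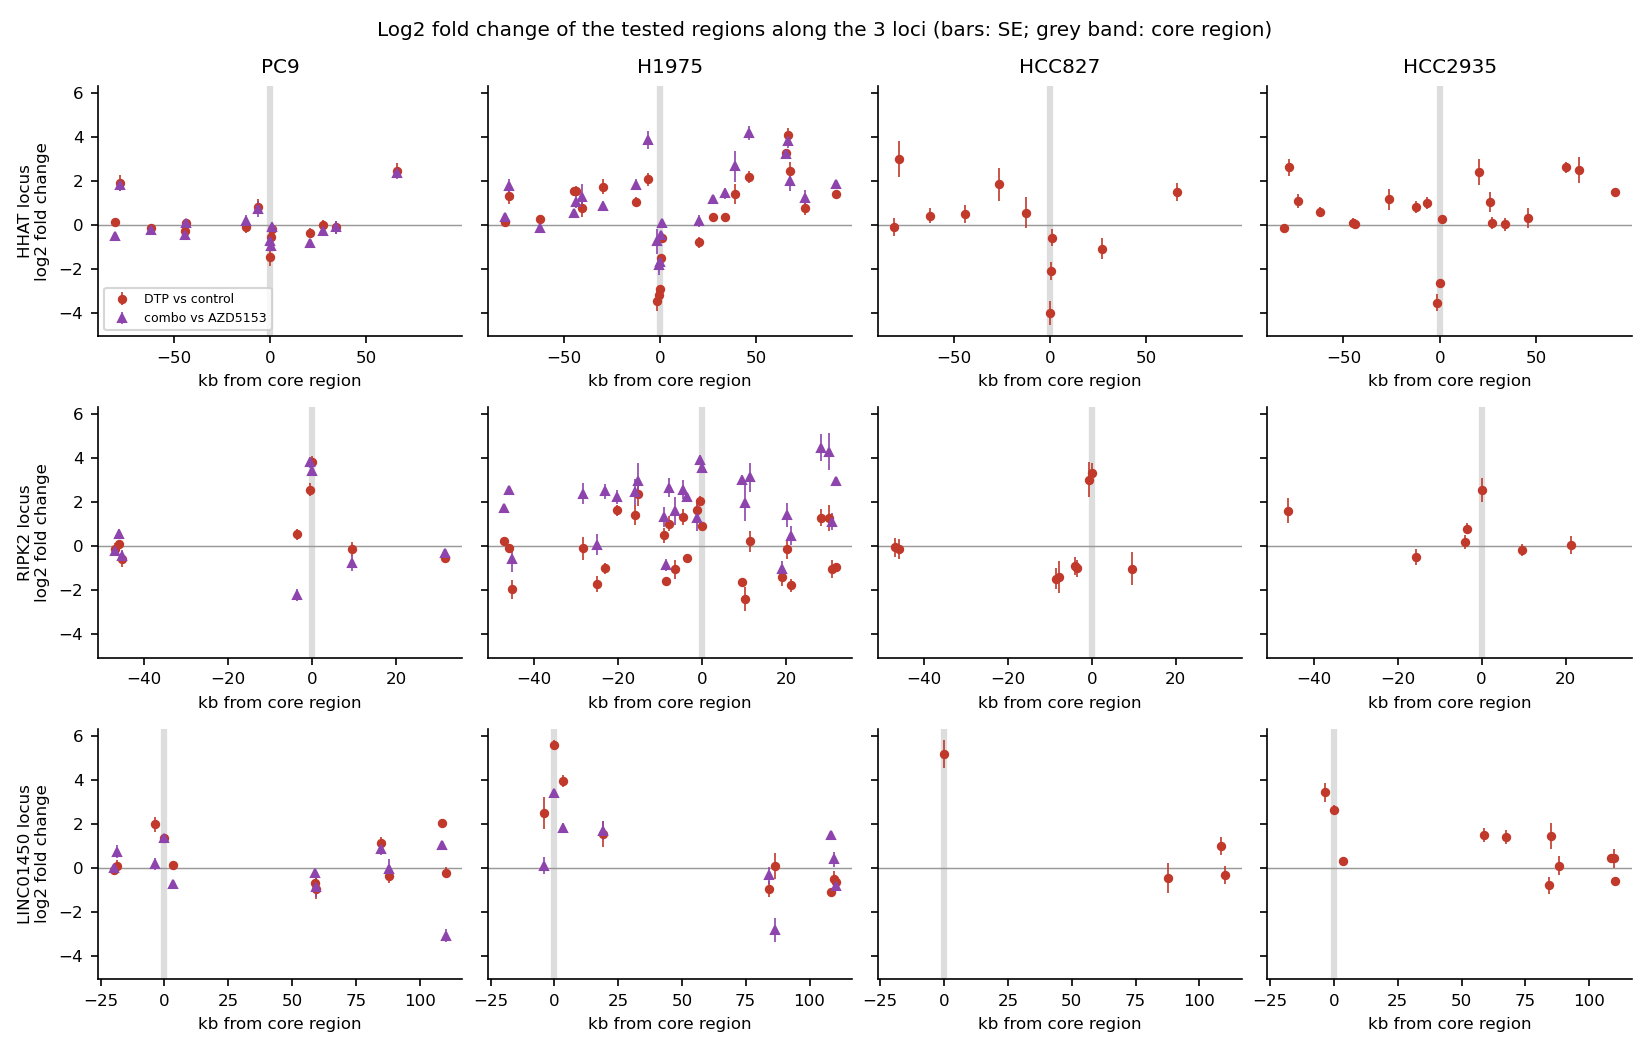
Log2 fold change ± SE of every tested region along the loci (rows) in the 4 lines (columns), against the distance in kb from the core region (grey band), for DTP against control (circles) and, in PC9 and H1975, combo against AZD5153 (triangles). At HHAT the values are negative at the core region and positive at the internal promoter and at RIPK2 in H1975 25 of 28 values for combo against AZD5153 are above 0.

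The comparison of combo with AZD5153 asks what osimertinib did when both groups ended in the same 3 days of AZD5153. Whether osimertinib stayed on in those days is not known. It is the one comparison that uses none of the libraries that chose the loci. In PC9, 16 of 33 tested members (48.5%) were called, 9 higher and 7 lower in combo, against 42.9% of all tested regions (22.5% higher, 20.5% lower). In H1975, 51 of 61 (83.6%) were called, 44 higher and 7 lower, against 61.1% of all tested regions (31.2% higher, 29.9% lower). The PC9 share is near the background. In H1975 the regions within 5 Mb of RIPK2 had a median log2 fold change of 1.33 and those around HHAT 0.55, against -0.02 over all tested regions. When the median of each 10 Mb stretch was removed, 42 were called, 30 higher and 12 lower, against 55.3% of all tested regions (27.9% higher, 27.3% lower).

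The RIPK2 core region was higher in combo than in AZD5153 in both lines. In PC9 the AZD5153 libraries had 3.11, 0.696 and 1.88 CPM and the combo libraries 19.5, 22.5 and 20.2 CPM. The log2 fold change was 3.44 ± 0.23 (edgeR adjusted p = 9.67e-43). In H1975 the AZD5153 libraries had 4.64, 4.35 and 4.22 CPM and the combo libraries 48.5, 53.9 and 53.9 CPM. The log2 fold change was 3.56 ± 0.12 (edgeR adjusted p = 5.59e-81), and 2.32 with regional medians removed. Its neighbour was also higher, by 3.81 ± 0.26 in PC9 and 3.95 ± 0.22 in H1975. In PC9 the neighbour was named for the largest RIPK2 change in this contrast. In H1975 it was named for the largest RIPK2 change of combo against control, which uses the same combo libraries. Both values of the neighbour are therefore descriptions. The neighbour had 5, 5 and 6 counts in PC9 AZD5153 and 6, 4 and 11 in H1975 AZD5153.

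Combo also had a higher LINC01450 core region than AZD5153. PC9 had 11.01, 10.2 and 15.5 CPM in AZD5153 and 29.8, 31.8 and 32.8 CPM in combo, a log2 fold change of 1.36 ± 0.13 (edgeR adjusted p = 6.60e-22). H1975 had 2.45, 3.48 and 2.62 CPM in AZD5153 and 29.9, 25.8 and 31.9 CPM in combo, a log2 fold change of 3.38 ± 0.15 (edgeR adjusted p = 1.22e-59). The groups did not overlap in either line. The median around LINC01450 in H1975 was -0.08, so no regional shift of this kind went with it.

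The HHAT core region was lower in combo than in AZD5153 in H1975. It had 5.16, 4.53 and 4.79 CPM in AZD5153 and 1.31, 1.496 and 1.69 CPM in combo, a log2 fold change of -1.67 ± 0.25 (edgeR adjusted p = 1.86e-09). The regions on either side of it also had lower means in combo, at 1.62 and 0.443 CPM for chr1:210372587-210373088 and 16.6 and 12.0 CPM for chr1:210373690-210374191. The median within 5 Mb of HHAT had the opposite sign, and with regional medians removed the value at the core region was -2.36. In PC9 the levels were 2.87, 2.09 and 2.81 CPM in AZD5153 and 1.95, 1.86 and 0.799 CPM in combo. The PC9 log2 fold change of -0.73 ± 0.42 did not pass (edgeR adjusted p = 0.154), on 3 to 12 counts per library.

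The internal promoter of HHAT rose in combo against AZD5153 in both lines. In PC9 it had 1.20, 2.09 and 2.58 CPM in AZD5153 and 10.0, 11.4 and 9.59 CPM in combo, a log2 fold change of 2.38 ± 0.27. The PC9 region was named for the largest HHAT change in this contrast, on 5, 9 and 11 counts in AZD5153. Its value is therefore a description. In H1975 the internal promoter had 2.97, 2.96 and 2.97 CPM in AZD5153 and 26.5, 27.3 and 29.8 CPM in combo, a log2 fold change of 3.23 ± 0.14. The H1975 region was named for its level over all groups, to which its high combo level added. This value is therefore a description too. The upstream member rose by 1.82 ± 0.27 in PC9 (edgeR adjusted p = 2.42e-10) and 1.76 ± 0.33 in H1975 (edgeR adjusted p = 1.22e-06). The 5′ promoter of PC9 fell by 0.47 on the log2 scale (edgeR adjusted p = 0.0226). That call was lost without PC9 combo replicate 1 (edgeR adjusted p = 0.395) or AZD5153 replicate 1 (edgeR adjusted p = 0.0807). It was also lost with the DESeq2 test (DESeq2 adjusted p = 0.0874) and on summed libraries (edgeR likelihood ratio adjusted p = 0.180). The range of adjusted p over alternatives was 0.00360 to 0.395.

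The largest falls of combo against AZD5153 in PC9 were distal. At LINC01450, chr7:41028936-41029437 had 10.3, 13.0 and 10.8 CPM in AZD5153 and 0.732, 1.59 and 1.60 CPM in combo, a log2 fold change of -3.11 ± 0.30. At RIPK2, chr8:89801658-89802159 had 8.14, 10.9 and 7.74 CPM in AZD5153 and 2.68, 1.33 and 1.60 CPM in combo, a log2 fold change of -2.22 ± 0.29. The LINC01450 region was named for the largest change at its locus in this contrast. The RIPK2 region was named for those of combo against DTP and AZD5153 against control. Both values are therefore descriptions. In H1975 the overlapping RIPK2 region, chr8:89801671-89802172, named after its values were seen, had 14.8, 13.8 and 15.9 CPM in AZD5153 and 70.2, 65.2 and 74.2 CPM in combo. The difference between the lines was not tested. In H1975 the largest change at HHAT was at chr1:210419189-210419690 in an intron, with 0.516, 0.348 and 0.228 CPM in AZD5153 and 6.03, 6.61 and 7.66 CPM in combo, on 2 to 4 counts in AZD5153. The largest at RIPK2, chr8:89833560-89834061, had 1, 0 and 1 counts in AZD5153 and 14, 22 and 22 in combo, so no fold is given.

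The comparison of AZD5153 with control asks what AZD5153 alone did at these loci, and it shares the control libraries that chose them. The core regions are therefore given here by their values, with no test. In PC9, 6 members were higher and 2 lower of 33, where 25.8% of all tested regions were called (11.2% higher, 14.6% lower). In PC9 the LINC01450 core region had a log2 fold change of -0.03 ± 0.17, RIPK2 0.67 ± 0.48 and HHAT -0.61 ± 0.34, and the libraries overlapped at all of them. RIPK2 had 1, 2 and 10 counts in control, and without PC9 control replicate 3 its value was 2.08.

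In H1975, 5 members were higher and 36 lower with AZD5153 than in control, of 61, where 58.1% of all tested regions were called (26.7% higher, 31.4% lower). At RIPK2 21 of 28 were lower and none higher by edgeR, with 23 at an unadjusted p under 0.05. The regions within 5 Mb of RIPK2 had a median of -1.10 and those around HHAT -0.60, against -0.04 over all tested regions. With regional medians removed, 8 were higher and 15 lower, against 53.5% of all tested regions (24.6% higher, 28.9% lower), so the members' share lay below the background there. The RIPK2 core region had a log2 fold change of -2.25 ± 0.14, and -1.16 with regional medians removed. The HHAT core region had -2.13 ± 0.14, and -1.72 with regional medians removed. At both, all AZD5153 libraries lay below all control libraries. The RIPK2 promoter region fell by 1.14 (edgeR adjusted p = 2.31e-10), but its value less the local median was -0.04, and the call was lost when regional medians were removed (edgeR adjusted p = 0.850, range over alternatives 3.19e-11 to 0.850). What moved these stretches was not tested.

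The LINC01450 core region had 2.45, 3.48 and 2.62 CPM with AZD5153 alone in H1975, above the control libraries at 0.269 to 0.619 CPM and far below the DTP libraries at 21.0 to 26.7 CPM. Its low level in control is part of what chose it, and no fold is given over 2 to 4 counts. A distal region at the far end of the locus went opposite ways. At chr7:41027376-41027877 PC9 went from 4.30 ± 0.359 CPM in control to 13.97 ± 1.79 CPM in AZD5153, a log2 fold change of 1.69 ± 0.21. The PC9 region was named for the largest LINC01450 change in this contrast, so its value is a description. At chr7:41027303-41027804 H1975 went from 18.2 ± 2.13 to 6.63 ± 0.761 CPM, a log2 fold change of -1.46 ± 0.14 (edgeR adjusted p = 2.43e-21). The difference between the lines was not tested.

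The comparison of combo with DTP asks whether the last 3 days, with AZD5153, changed the persister pattern. Since the labels do not say whether osimertinib stayed on, AZD5153 and a stop of osimertinib cannot be told apart here. The comparison shares the DTP libraries that chose the loci, so a return toward control would be favoured by the choice itself. The core regions are given by their values, with no test. In PC9, 4 members were higher and 4 lower of 33 (22.3% of all tested regions called, 10.6% higher and 11.7% lower). In H1975, 13 were higher and 8 lower of 61 (21%, 11.5% and 9.48%), and in HCC2935 2 higher and 1 lower of 38 (8.31%, 1.9% and 6.4%). In HCC827 0 of 24 were called by edgeR (0%), with 5 at an unadjusted p under 0.05, and 1 lower with the block (0.0304%).

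In HCC827 the RIPK2 core region lay near its control level in combo. It had 19.3, 19.3 and 32.8 CPM in DTP and 5.58, 3.74 and 3.71 CPM in combo, next to 3.49, 1.91 and 1.69 CPM in control. All combo libraries lay below all DTP libraries and above all control libraries. The log2 fold change was -2.46 ± 0.44, and -2.52 ± 0.39 with the replicate block. The core region is the member called with the block and not without it, and its direction is the one that the choice favours. The neighbouring region had -1.61.

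In H1975 the RIPK2 core region had 48.5, 53.9 and 53.9 CPM in combo against 37.9, 42.1 and 38.3 CPM in DTP, a log2 fold change of 0.40 ± 0.07. PC9 had 0.29 ± 0.14 and HCC2935 0.21 ± 0.31, where the libraries overlapped. The difference between the lines was not tested. At HHAT the core region had a log2 fold change of -0.91 ± 0.28 for combo against DTP in H1975 and -0.87 ± 0.21 in HCC2935, with all combo libraries below all DTP libraries in both. PC9 had 0.12 ± 0.49 and HCC827 -0.70 ± 0.72 there, and their libraries overlapped.

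The LINC01450 core region had 0.35 ± 0.09 for combo against DTP of H1975, and 1 combo library, at 25.8 CPM, lay below the highest DTP library, at 26.7 CPM. HCC2935 had 0.32 ± 0.13, PC9 -0.02 ± 0.11 and HCC827 -0.82 ± 0.46, with combo at 20.9, 16.8 and 18.2 CPM below all HCC827 DTP libraries. In PC9 the internal promoter of HHAT had 0.44 ± 0.20 (edgeR adjusted p = 0.0936), in H1975 0.10 ± 0.08 (edgeR adjusted p = 0.473), in HCC827 -0.55 ± 0.41 and in HCC2935 -0.16 ± 0.17. Both distal PC9 regions given above as lower in combo than in AZD5153 were lower than in DTP, by 1.91 at LINC01450 and by 1.84 at RIPK2. Each was named for the largest change of its locus in combo against DTP, so these values are descriptions.

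**Figure D4:**
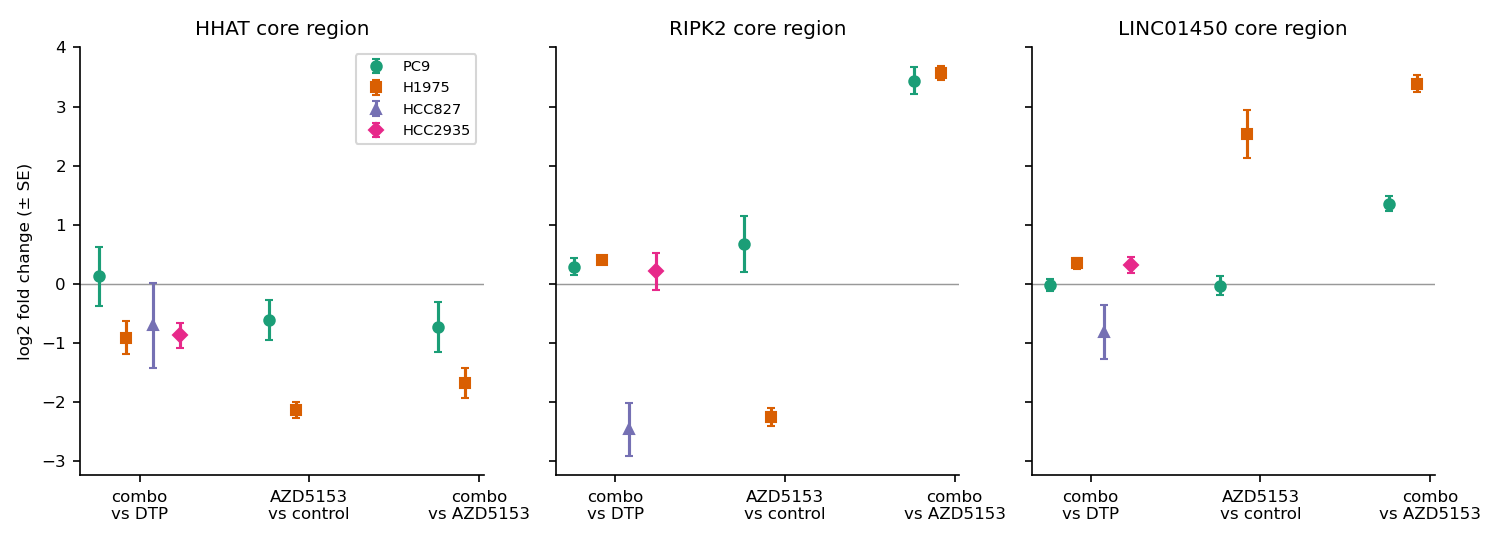
Log2 fold change ± SE of the 3 core regions (panels) for combo against DTP, AZD5153 against control and combo against AZD5153 (x axis), by line (marker). Combo against AZD5153 is at 3.44 and 3.56 at RIPK2, and combo against DTP of HCC827 at RIPK2, at -2.46, lies below the other lines.

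Of all members, combo against control gave 8 higher and 10 lower of 33 in PC9 (46.7% of all tested regions called, 23.3% higher and 23.4% lower) and 28 higher and 17 lower of 61 in H1975 (55.8%, 27.2% and 28.6%). It gave 18 higher and 4 lower of 38 in HCC2935 (42.3%, 20.7% and 21.6%). In HCC827 it gave 1 higher and 2 lower of 24 (0.158%, 0.0364% and 0.121%), and 3 higher and 6 lower with the block (6.42%, 1.7% and 4.71%). Against control, combo kept the pattern of DTP at most core regions, and these values are given with no test because control libraries chose the loci. The log2 fold change at HHAT was -1.34 for PC9, -3.81 for H1975, -3.50 for HCC2935 and -4.70 for HCC827. At LINC01450 it was 1.33 for PC9 and 2.95 for HCC2935. No fold is given there for H1975 and HCC827, whose control libraries held at most 4 counts and whose combo libraries had 29.2 ± 3.09 and 18.6 ± 2.09 CPM. At RIPK2 it was 4.11 for PC9, on 1 to 10 counts in control, 1.31 for H1975 and 0.85 for HCC827, at 2.36 ± 0.982 CPM in control and 4.34 ± 1.07 CPM in combo. HCC2935, with 1 or 2 counts in control, had 3.18 ± 0.498 CPM in combo.

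An interaction was computed as the log2 fold change of combo against DTP less that of AZD5153 against control. It compares AZD5153 on persisters with AZD5153 on untreated cells only if osimertinib stayed on, which the labels do not say. The interaction holds the control and DTP libraries that chose the core regions, so their values are given with no test. Of all tested regions, 13.8% passed in PC9 (7.32% higher, 6.46% lower) and 42.5% in H1975 (24.4% higher, 18.2% lower). PC9 had 0.01 ± 0.20 at LINC01450, -0.38 ± 0.49 at RIPK2 and 0.73 ± 0.60 at HHAT. H1975 had 2.66 ± 0.16 at RIPK2, and 1.63 with regional medians removed. There the core region was lower in AZD5153 than in control and higher in combo than in DTP. At LINC01450 H1975 had -2.19 ± 0.42, on 2 to 4 counts in control, and at HHAT 1.22 ± 0.34, and 0.78 with regional medians removed. The LINC01450 and HHAT values have the sign that a choice by DTP against control favours.

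The regions most like each core region over the 14 group means, centred within each line, were sought among the 40308 matched regions. This is a description, since groups of a line share the treatment contrast that chose the core regions. LINC01450 was most like regions at ODF3L1, LAD1 and AP4S1 (r = 0.982, 0.979 and 0.977). RIPK2 was most like regions at CMIP, LYPD5 and RBM28 (r = 0.964, 0.964 and 0.945), and HHAT like regions at RNU5B-1, SCNN1D and YEATS4 (r = 0.973, 0.970 and 0.964). Between the core regions r was -0.94 for LINC01450 with HHAT, 0.66 for LINC01450 with RIPK2 and -0.55 for RIPK2 with HHAT. Of these 9 regions, the one at LAD1, which encodes the basement membrane protein ladinin, came closest to LINC01450 in size, with log2 fold changes for DTP against control of 0.82 for PC9, 4.78 for H1975, 2.68 for HCC2935 and 2.36 for HCC827.

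Promoters of the pathways in which HHAT and RIPK2 act were read in the same fits. Of 20 hedgehog genes, 18 had a tested promoter in PC9 and 15 in H1975. For combo against AZD5153, 5 were higher and 0 lower in PC9 (22.5% and 20.5% of all tested regions), and 2 higher and 6 lower in H1975 (31.2% and 29.9%). Among those called in both lines were SHH, a hedgehog ligand, and GLI3, a transcription factor of the pathway, each with opposite signs. The strongest SHH promoter region was another one in each line, starting at base 155809631 in PC9 and 155808413 in H1975. These do not overlap, so no common SHH region was compared. The GLI3 region had the same start in both lines. SHH had 1.09 ± 0.17 in PC9 (edgeR adjusted p = 5.93e-09) and -0.80 ± 0.23 in H1975 (edgeR adjusted p = 0.00134). GLI3 had 0.83 ± 0.27 and -0.49 ± 0.13 (edgeR adjusted p = 0.00678 and 0.000590).

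Of 23 genes of NOD and RIPK2 signalling, 22 promoters were tested in PC9 and H1975. For combo against AZD5153, 12 were higher and 0 lower in PC9, and 5 higher and 6 lower in H1975. Of all tested regions, 42.9% were called in PC9 (22.5% higher) and 61.1% in H1975 (31.2% higher), so the H1975 share lay below the background. The medians were 0.23 and 0.05, against 0.03 and -0.02 over all tested regions. Called in both lines were BIRC2 and BIRC3, ubiquitin ligases of the pathway, RELA, a subunit of NF-κB, and SHARPIN, a part of the linear ubiquitin ligase. All were higher in PC9 and lower in H1975. BIRC3 had 0.20 ± 0.08 in PC9 (edgeR adjusted p = 0.0363) and -0.76 ± 0.09 in H1975 (edgeR adjusted p = 2.03e-13). BIRC2 had 0.27 ± 0.11 and -0.39 ± 0.09 (edgeR adjusted p = 0.0336 and 0.000121). RELA had 0.31 ± 0.11 in PC9 and -0.89 ± 0.11 in H1975, but -0.13 there with regional medians removed. SHARPIN had 0.57 ± 0.06 and -0.35 ± 0.08, and 0.20 in H1975 with regional medians removed, so neither H1975 call held there.

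For combo against DTP, promoters of the NOD and RIPK2 list were called higher in 8 and lower in 0 of 22 in PC9, and higher in 10 and lower in 0 of 22 in H1975. All tested regions were called higher in 10.6% and 11.5%, and lower in 11.7% and 9.48%. HCC2935 had 1 higher and 1 lower of 22 (1.9% and 6.4% of all tested regions). The listed regions were each gene's strongest promoter region, and the shares over all tested regions are not matched to them by level. Of the RIPK kinases beside RIPK2, RIPK4 was called in both lines for combo against AZD5153, at 0.43 ± 0.12 in PC9 and 0.37 ± 0.10 in H1975 (edgeR adjusted p = 0.00158 and 0.000728). Of 10 other acyltransferases of the MBOAT family, to which HHAT belongs, 6 had a tested promoter in PC9 and 7 in H1975, and 0 were called in both lines. For combo against AZD5153 they gave 1 higher and 0 lower in PC9 (22.5% and 20.5% of all tested regions), and 1 higher and 4 lower in H1975 (31.2% and 29.9%).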

How the data were processed

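ATAC-seq raw counts of 42 libraries were analysed, as deposited by the authors in 1 table per line. The counts are whole reads in fixed regions of 502 bases, not normalized. The submitters' processing notes name BWA 0.7.17, SAMtools 1.9, deepTools 3.4, MACS2 2.2.6, featureCounts 2.0.0, ChIPseeker 1.29.1 and hg38, without their settings. Deposited peak lists gave −log10 q values per library. The labels' extraction text describes a chromatin immunoprecipitation, whereas titles and design name ATAC-seq. Depth is given with the results, and intervals cover the spread between libraries only.

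Each line was fitted over its whole table with edgeR 4.0.16 (R 4.3.3): filterByExpr, TMM, all groups in 1 quasi-likelihood fit, and Benjamini-Hochberg adjusted p under 0.05 over all tested regions. SE is the log2 fold change over the square root of F. The fit was tested on simulated data. At the core regions p-values are given as tests only for combo against AZD5153, the contrast without the libraries that chose them. Replicate numbers paired the HCC827 libraries (r 0.257 to 0.827 between same-numbered libraries) and not those of the other lines (-0.0740 to 0.206), so blocked values stand beside HCC827 results. Alternatives were DESeq2 1.42.0 (size factors and test), library size only, no filter, a mean of at least 50 counts, summed libraries, the block, 1 library left out, 80% overlap and, chosen after seeing the data, removal of the median of each 10 Mb stretch.

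Members, gene lists and tests were chosen with earlier results of these data known. Named regions were the core regions, the strongest promoter region within 1 kb, the region with the largest called change without overlap per locus, line and contrast, the 3 regions most like each core region, and listed promoters called in both PC9 and H1975 for combo against AZD5153. Figures were drawn with matplotlib 3.10.9. Sequences of the core regions are not given here. One listed promoter is not reported here.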

Additional observations from a re-analysis of the deposited data

Results flagged for a closer look

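The difference between combo against DTP and AZD5153 against control passed the edgeR interaction test at the core regions of H1975. It cannot be told apart from a stop of osimertinib in combo. That test uses the control and DTP libraries that chose these regions, so it is no independent evidence of a difference. The value (persisters minus untreated, log2) was -2.19 at LINC01450, 2.66 at RIPK2 and 1.22 at HHAT. The sign at LINC01450 and HHAT is the one that the choice favours, and the HHAT call was lost with regional medians removed.

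For combo against DTP all combo libraries lay on one side of the DTP libraries in some lines and on the other side in others, and the difference between lines was not tested. At LINC01450 the log2 fold change was -0.82 in HCC827 and 0.32 in HCC2935, and neither was called by edgeR. At RIPK2 it was -2.46 in HCC827 and 0.29 in PC9, neither of them called, and 0.40 in H1975, which was called. The HCC827 value was called with the replicate block, and the H1975 call was lost on summed libraries. These values share the DTP libraries that chose the core regions.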

How the results depend on the processing

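Of 883 values of the core regions under alternatives, 812 kept their direction and side of the threshold, 52 lost a call, 6 gained one and 13 changed sign. With a mean of at least 50 counts, fewer members were tested, and those called were 4, 3, 6, 4 and 8 in PC9 (DTP against control, combo against DTP, combo against control, AZD5153 against control, combo against AZD5153), 17, 10, 16, 14 and 16 in H1975, 0 and 1 in HCC827 (DTP and combo against control) and 6 and 7 in HCC2935. For combo against DTP, the DESeq2 test called 5 in PC9 and 7 in H1975, and summed libraries 5 and 4. In HCC827 (DTP against control, combo against DTP, combo against control) summed libraries gave 10, 6 and 13, the replicate block gave 9, 1 and 9, and library size only gave 1 for the first. Removing regional medians left 23 for AZD5153 against control in H1975. At 80% overlap 1 core region remained. Leaving out 1 library gave 0 to 3 (DTP against control) and 0 to 4 (combo against control) in HCC827 and 1 to 5 (combo against DTP) in HCC2935. The sign changed only in PC9 values near 0. LINC01450 for combo against DTP became 0.051 with no filter and 0.070 with regional medians removed, and ran from -0.067 to 0.031 with 1 library left out. LINC01450 for AZD5153 against control became 0.017 with library size only, 0.085 with no filter, 0.023 with the higher count minimum and 0.0226 with regional medians removed, and ran from -0.24 to 0.086 with 1 library left out. HHAT for combo against DTP ran from -0.088 to 0.42 likewise. The replicate block changed 1 core value, RIPK2 of HCC827. The cause of these changes was not tested. Low counts limit HHAT in PC9, RIPK2 in HCC2935 and the control level of LINC01450.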
